A study of Mus musculus with 13 samples.

Results

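Lines D1 and D5 are transplanted plasma cell tumours of the same engineered genotype, and their transcriptomes were set against each other. The comparison set 4 of the 13 libraries of the series against each other, chosen by the line named in the labels. They are 2 recipients of line D1 and 2 recipients of line D5. One library of a further line, D4, was shown for reference and was not tested, though it was part of the fit. All 5 tumour libraries carry V{kappa}*MYC, Nras LSL Q61R/+ and IgG1-Cre on a C57/BL6 background, and each was made from 50000 donor-derived bone marrow plasma cells of a recipient, sorted as CD138+ B220- and CD45.2+. The reference plasma cells were from wild-type mice (WT, 3 libraries), from mice with V{kappa}*MYC and IgG1-Cre but no Nras allele (V, 3 libraries), and from recipients of the transplantable tumour tVk12653 (2 libraries). The V{kappa}*MYC transgene drives human MYC from kappa light chain elements in B lineage cells that have undergone somatic hypermutation, LSL is a stop cassette that Cre removes, and IgG1-Cre acts in B cells that transcribe the IgG1 constant region. The 2 libraries of a line are recipients of the same tumour, so p-values do not measure the spread between tumours of this genotype. All 13 libraries entered the gene filter, the scaling and the fit. The spread behind the p-values was taken over recipients of these 2 lines and of tVk12653, and over WT and V mice. The labels do not give ages for these groups or say whether a line is one clone.

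Multiple myeloma is a cancer of plasma cells, the antibody-secreting end stage of the B cell lineage. Tumours of this disease commonly carry RAS mutations, express one of the D-type cyclins, and hold gains or losses of whole chromosomes or chromosome arms. RAS proteins such as NRAS pass growth signals through RAF and MEK kinases to ERK, which switches on both the effectors of the pathway (ETV factors, cyclin D1) and its brakes (DUSP phosphatases, SPRY and SPRED proteins). NF-kB, a family of transcription factors with its own set of inhibitors among its targets, is a survival pathway of normal and malignant plasma cells.

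Reads had been counted per gene, and total counts were 3401667 and 8512281 in D1, 3754964 and 3935069 in D5, and 7403425 in D4. Levels are given as CPM (a gene's counts scaled to a common library total) with a correction for library composition, which compare one gene across libraries and not different genes. The Spearman correlation over genes was 0.983 within D1 and 0.986 within D5, against 0.840 to 0.855 between the lines, and D4 correlated at 0.904 to 0.905 with D1 and 0.841 to 0.850 with D5. The absolute log2 difference of a gene had a median of 0.238 between the D1 recipients, 0.217 between the D5 recipients and 0.653 between the means of the lines. Plasma cell markers summed to 7168 and 7013 CPM in D1, against 6201 and 5859 CPM in D5. Both lines thus had these markers, but below the 39339.7 to 73085 CPM of WT and the 43709.6 to 65049 CPM of V. The CD45 gene, part of the sort, is described with the B cell genes. Markers of other cells differed too. Neutrophil markers summed to 1379 and 427 CPM in D1, against 97.2 and 160.0 CPM in D5. Monocyte and macrophage markers summed to 1871 and 1748 CPM in D1, against 393 and 438 CPM in D5. The neutrophil sum was 3712 to 10294 CPM in WT and 2051 to 4044 CPM in V, above both lines. The monocyte sum was 1694 to 2909 CPM in WT and 1761 to 2545 CPM in V. The part of such cells in the differences below was not tested, and in bulk libraries fewer cells of a type and less RNA per cell cannot be told apart.

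Of 12835 genes tested, 2568 were higher in D1 and 2783 lower in D1 at an adjusted p under 0.05, that is 20% and 21.7% of the genes, or 41.7% in either direction. With a change of at least 2-fold as a further condition, 1773 genes (13.8%) were higher and 1766 (13.8%) lower. The D1 libraries lay wholly above or below the D5 libraries for 74.6% of the genes. The median log2 fold change over all genes, D1 minus D5, was 0.05. Lists of genes by pathway are set against these shares: a list at about 1 called gene in 5 in each direction is at the background. The lists were chosen with earlier results of these data known, so their counts describe these genes and test nothing. Several lists stood far from the background. NF-kB factors and targets had 15 genes higher and 0 lower of 23, and proliferation genes had 0 higher and 18 lower of 28. DNA replication genes had 0 higher and 17 lower of 28, and genes of ribosome biogenesis had 0 higher and 19 lower of 30. Targets of the RAS-ERK pathway had 1 higher and 10 lower of 18.

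**Figure D1:**
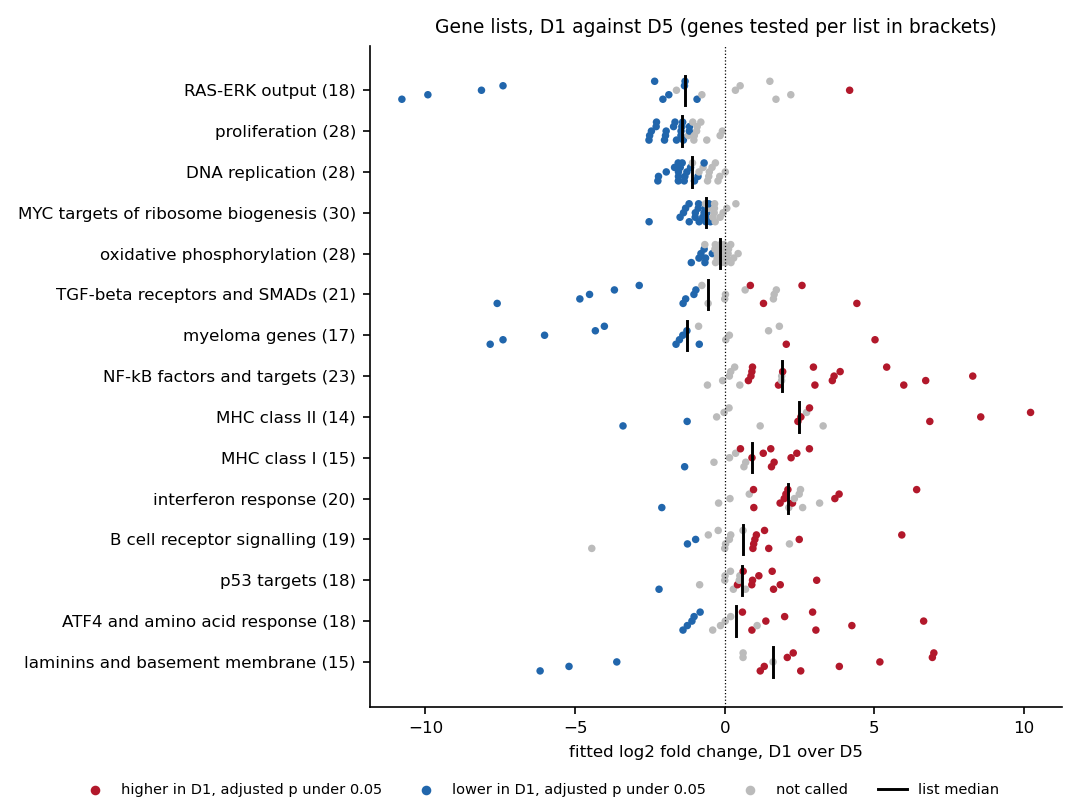
Each point is one gene's fitted log2 fold change, D1 minus D5 (horizontal axis), in 15 of the 32 pathway lists (rows). Colours mark genes higher in D1, lower in D1 or not past the test, and a black bar marks the list's median. The rows of NF-kB (median 1.90), MHC class II (2.49) and interferon genes (2.12) lie to the right. Those of proliferation (-1.42), RAS-ERK output (-1.34) and DNA replication (-1.11) lie to the left.

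Most transcriptional targets of the RAS-ERK pathway were lower in D1. Of 18 genes, 10 passed the test as lower and 1 as higher, with a median log2 fold change of -1.34. Etv1, an ETS factor induced by ERK (GRCm38.p6, chromosome 12, 38780082 to 38870483), had 0 and 0 CPM in D1, against 57.8 and 52.9 CPM in D5. With no count in either D1 library it was at least 97.7-fold lower in D1, and D4 had 6.32 CPM. Dusp4, a nuclear phosphatase that inactivates ERK (chromosome 8, 34807610 to 34819894), had 0 and 0 CPM in D1, against 21.5 and 39.1 CPM in D5, at least 53.4-fold lower. Spred1, an inhibitor of RAF activation (chromosome 2, 117121071 to 117182279), had 1.08 and 0.326 CPM in D1, against 158 and 169.7 CPM in D5 (log2 fold change -8.13 ± 0.45, adjusted p = 1.57e-08). The brakes and effectors with lower amplitude pointed the same way. Dusp6, the cytoplasmic ERK phosphatase, had 50.3 and 28.8 CPM in D1, against 246 and 148 CPM in D5 (log2 fold change -2.34 ± 0.38, adjusted p = 0.000429). Spry4 had 96.9 and 70.1 CPM in D1, against 194 and 228 CPM in D5 (log2 fold change -1.34 ± 0.26, adjusted p = 0.000976). Etv5 had 64.3 and 33.0 CPM in D1, against 221 and 179 CPM in D5 (log2 fold change -2.07 ± 0.27, adjusted p = 3.17e-05), and none of these genes overlapped between the lines. The gene that went the other way, Ier3, an early response gene, had 2.96 and 2.82 CPM in D1 and 0.265 and 0 CPM in D5, and its call was lost without D5 replicate 2. Immediate early genes, which ERK and other signals switch on within minutes, had 1 of 16 higher (Junb) and 0 lower. The D1 recipients lay far apart for them, as for Fos, with 812 and 109 CPM in D1 and 59.4 and 49.3 CPM in D5 (adjusted p = 0.1). The Junb call was lost when either D5 replicate was left out.

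The D-type cyclins Ccnd1 and Ccnd2 differed in opposite directions. Ccnd1, which encodes cyclin D1 (chromosome 7, 144929931 to 144939831), had 0.269 and 0.217 CPM in D1, against 52.7 and 37.1 CPM in D5, and D4 had 15.9 CPM. The ratio of D5 to D1 was 193, with an exact 95% counting interval of 65.4 to 939. Ccnd2 (chromosome 6, 127125162 to 127152188) showed the reverse, with 2204 and 3345 CPM in D1, against 28.9 and 142 CPM in D5 and 3330.1 CPM in D4 (log2 fold change 5.02 ± 1.25, adjusted p = 0.0137). The Ccnd2 call was lost without D5 replicate 1 (adjusted p = 0.067), the library with the lower D5 value, and in a fit to the D1 and D5 libraries alone (adjusted p = 0.0606). Ccnd3 had 30.4 and 34.2 CPM in D1 and 29.4 and 34.0 CPM in D5 and did not pass the test (adjusted p = 0.936). Ccnd1 was thus higher in both D5 recipients and Ccnd2 in both D1 recipients, and Ccnd2 was still detected in D5. Among the 17 cyclin, CDK and CDK inhibitor genes tested, 5 were higher and 4 lower in D1, but 3 and 2 when either D5 replicate was left out. The CDK inhibitor Cdkn1a had 65.4 and 84.1 CPM in D1, against 22.8 and 18.7 CPM in D5 (log2 fold change 1.85 ± 0.43, adjusted p = 0.00404). Another inhibitor, Cdkn2d, had 8.07 and 9.02 CPM in D1, against 2.12 and 2.81 CPM in D5 (log2 fold change 1.78 ± 0.59, adjusted p = 0.0253), but lost its call when any one of the 4 libraries was left out.

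**Figure D2:**
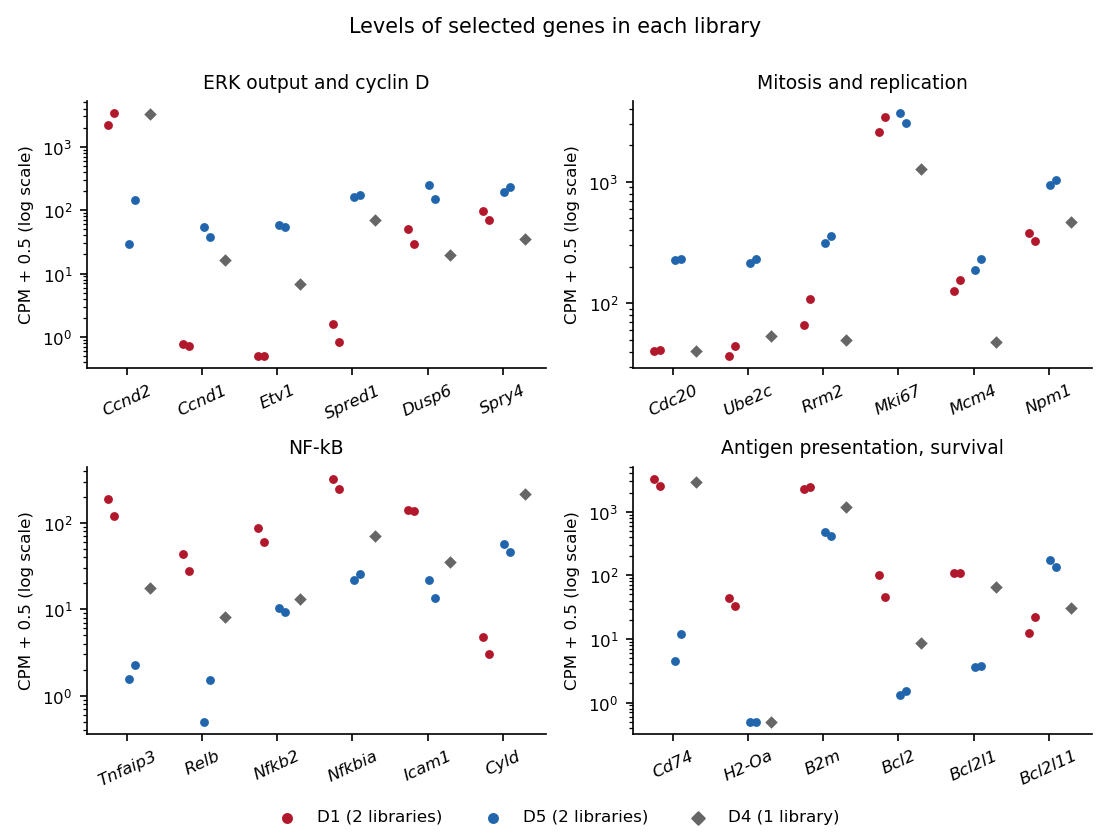
Levels of single genes in each library, as CPM + 0.5 on a log axis, for D1 (red, 2 libraries), D5 (blue, 2 libraries) and D4 (grey diamond, 1 library), in 4 panels for RAS-ERK and cyclin genes, cell cycle genes, NF-kB genes, and MHC and BCL2 family genes. Ccnd1 is higher in D5 and Ccnd2 higher in D1, and Tnfaip3, Relb, Cd74 and Bcl2 stand far apart, whereas Mki67 and Mcm4 lie close together.

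The pathway's own components did not share one direction. Of 20 RAS and RAF core genes, 6 were higher and 4 lower in D1, with a median log2 fold change of 0.11. Nras, the gene targeted in these mice (chromosome 3, 103058285 to 103067914), had 45.5 and 41.7 CPM in D1, against 132 and 163 CPM in D5 (log2 fold change -1.76 ± 0.17, adjusted p = 1.5e-06), with 59.3 CPM in D4 and 36.1 to 36.6 CPM in WT. The gene lies in a stretch of chromosome 3 that was raised in D5 (described at the end). The counts do not separate the mutant from the wild-type allele. The D5 libraries stood apart, while D1 lay close to D4 and WT. Rras, a RAS-related GTPase, had 9.96 and 10.8 CPM in D1, against 2.38 and 1.28 CPM in D5 (log2 fold change 2.49 ± 0.41, adjusted p = 0.000239). Mapk3, which encodes ERK1, had 33.1 and 37.8 CPM in D1, against 13.8 and 8.18 CPM in D5 (log2 fold change 1.70 ± 0.29, adjusted p = 0.000287). Braf, a kinase between RAS and MEK, had 203 and 180.4 CPM in D1, against 81.6 and 80.5 CPM in D5 (log2 fold change 1.24 ± 0.18, adjusted p = 7.08e-05).

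Proliferation genes, many of them of mitosis, were lower in D1, with 18 of 28 past the test, none higher and a median log2 fold change of -1.42. Cdc20, an activator of the anaphase-promoting complex (chromosome 4, 118432901 to 118437343), had 39.8 and 40.8 CPM in D1, against 227 and 233 CPM in D5 (log2 fold change -2.51 ± 0.36, adjusted p = 0.000164). Ube2c, the ubiquitin-conjugating enzyme of the same complex (chromosome 2, 164769929 to 164772902), had 36.3 and 44.4 CPM in D1, against 213 and 232 CPM in D5 (log2 fold change -2.45 ± 0.50, adjusted p = 0.00311). Ccne1, which encodes cyclin E1, had 31.8 and 51.3 CPM in D1, against 172 and 242 CPM in D5 (log2 fold change -2.29 ± 0.37, adjusted p = 0.000593). Cenpa, the centromeric histone H3 variant, had 23.1 and 23.7 CPM in D1, against 137 and 134 CPM in D5 (log2 fold change -2.53 ± 0.52, adjusted p = 0.00318). D1 was thus below D5 in both recipients for each of these genes. Mki67, the standard marker of cycling cells, did not follow, with 2585 and 3435 CPM in D1 and 3661 and 3038 CPM in D5 (log2 fold change -0.15 ± 0.43, adjusted p = 0.804).

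DNA replication genes had 17 of 28 lower in D1 and a median log2 fold change of -1.11. Rrm2, the regulated subunit of ribonucleotide reductase (chromosome 12, 24708254 to 24714146), had 65.4 and 107 CPM in D1, against 315 and 361 CPM in D5 (log2 fold change -1.95 ± 0.41, adjusted p = 0.00377). Rfc4, a subunit of the clamp loader, had 30.7 and 46.5 CPM in D1, against 134 and 116 CPM in D5 (log2 fold change -1.68 ± 0.39, adjusted p = 0.00452). Rfc5, another subunit of it on chromosome 5, had 20.7 and 19.4 CPM in D1, against 95.4 and 93.3 CPM in D5 (log2 fold change -2.23 ± 0.27, adjusted p = 1.52e-05). Gins2, part of the replicative helicase on chromosome 8, had 9.96 and 11.4 CPM in D1, against 50.1 and 49.8 CPM in D5 (log2 fold change -2.21 ± 0.40, adjusted p = 0.000445). The D1 values lay below the D5 values for all of these. Part of the list lies on chromosomes 3, 5 and 8, where D1 was lower across most genes (described at the end). Without the genes of those 3 chromosomes the list had 8 lower and 0 higher, with a median of -0.71. The proliferation list had 16 lower and 0 higher without them. Mcm4, a subunit of the helicase, had 126 and 154 CPM in D1 and 187 and 232 CPM in D5 and did not pass the test (adjusted p = 0.21).

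Mouse Myc was 1 of 3 lower genes among the 12 of the MYC, MAX and MXD network tested. Myc (chromosome 15, 61985341 to 61990361) had 902 and 687 CPM in D1, against 1351 and 1665 CPM in D5, and D4 had 1650.2 CPM (log2 fold change -0.93 ± 0.26, adjusted p = 0.0123). The call was lost without D1 replicate 2 (adjusted p = 0.107) and without D5 replicate 2 (adjusted p = 0.0892), and how reads of the human transgene were counted is not given in the sources used here. Mxd1, a repressor that competes with MYC for MAX, had 106 and 118 CPM in D1, against 40.3 and 42.7 CPM in D5 (log2 fold change 1.44 ± 0.36, adjusted p = 0.00912), a call lost without D5 replicate 1. The genes of ribosome biogenesis and nucleotide synthesis, a class induced by MYC, were lower in D1 for 19 of 30, with a median of -0.64. Npm1, which encodes nucleophosmin (chromosome 11, 33152498 to 33164142), had 379 and 325 CPM in D1, against 949 and 1030.3 CPM in D5 (log2 fold change -1.49 ± 0.21, adjusted p = 5.15e-05). Srm, the spermidine synthase gene, had 176 and 178 CPM in D1, against 424 and 497 CPM in D5 (log2 fold change -1.38 ± 0.14, adjusted p = 3.4e-06). Ppat, the first committed enzyme of purine synthesis, on chromosome 5, had 20.5 and 30.6 CPM in D1, against 159 and 142 CPM in D5 (log2 fold change -2.53 ± 0.23, adjusted p = 1.26e-06). D1 lay below D5 in each of them, by less for Npm1 and Srm than for Ppat, and 17 were lower without chromosomes 3, 5 and 8.

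NF-kB factors, inhibitors and targets were higher in D1 for 15 of 23 genes, with 0 lower. A 10-letter kappaB consensus, the motif to which p50-containing dimers bind, was searched on both strands of RefSeq promoter windows running from 250 bases before to 50 bases after each start. It was in 4 of 20 windows of the 17 list genes that matched (20%), against 0.411% of all 32851 promoter windows. Of the 4 windows, 2 are overlapping Nfkb2 windows that hold the same site, so by gene it was in 3 of 17, against 126 of all 27025 genes with a window. The promoters that hold it are those of Ltb (chr17:35194257-35194556, plus strand), Nfkbia (chr12:55492598-55492897, minus strand) and Nfkb2 (chr19:46305445-46305744, plus strand), all 3 higher in D1, and are shown because they are the genes of the list with this sequence. They are in GRCm38.p6, read 5′ to 3′ on the gene's strand, with the match to the motif, or to its complement, in capitals. A match is a description of letters and not a measured binding site. The list was chosen as NF-kB factors and targets, so its share against all promoters does not bear on D1 against D5. Of its 17 genes with a window, 12 were higher in D1.
Ltb: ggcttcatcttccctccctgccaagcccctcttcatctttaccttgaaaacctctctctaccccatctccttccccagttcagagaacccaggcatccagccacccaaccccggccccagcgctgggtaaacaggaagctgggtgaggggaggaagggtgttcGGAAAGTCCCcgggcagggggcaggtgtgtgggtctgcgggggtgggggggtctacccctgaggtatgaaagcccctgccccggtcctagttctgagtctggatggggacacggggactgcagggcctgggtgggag
Nfkbia: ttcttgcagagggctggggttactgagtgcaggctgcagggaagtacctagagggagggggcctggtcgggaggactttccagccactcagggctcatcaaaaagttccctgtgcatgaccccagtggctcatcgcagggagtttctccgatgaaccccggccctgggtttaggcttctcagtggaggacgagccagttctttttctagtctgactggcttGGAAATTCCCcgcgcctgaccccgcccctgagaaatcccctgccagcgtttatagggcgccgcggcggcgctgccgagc
Nfkb2: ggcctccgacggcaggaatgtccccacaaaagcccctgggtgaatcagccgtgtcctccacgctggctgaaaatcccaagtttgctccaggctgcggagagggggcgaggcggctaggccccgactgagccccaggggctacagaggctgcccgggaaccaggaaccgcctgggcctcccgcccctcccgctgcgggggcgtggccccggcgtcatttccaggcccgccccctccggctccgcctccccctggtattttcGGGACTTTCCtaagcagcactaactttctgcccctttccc

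Ltb, a lymphotoxin that signals to the non-canonical NF-kB pathway, had 11.8 and 7.93 CPM in D1, against 0 and 0 CPM in D5. With no count in D5 it was at least 12.7-fold higher in D1, and D4 had 4.64 CPM. Tnfaip3, which encodes the inhibitor A20 (chromosome 10, 19000910 to 19015410), had 189 and 119 CPM in D1, against 1.06 and 1.79 CPM in D5 and 17.3 CPM in D4 (log2 fold change 6.71 ± 0.37, adjusted p = 2.02e-08). Relb, the transcription factor of the non-canonical pathway (chromosome 7, 19606217 to 19629438), had 43.6 and 26.9 CPM in D1, against 0 and 1.02 CPM in D5 and 7.58 CPM in D4 (log2 fold change 5.98 ± 0.50, adjusted p = 5.27e-07). All of them were low or undetected in both D5 recipients. Nfkb2, whose product p100 is the precursor of p52, had 86.4 and 59.4 CPM in D1, against 9.80 and 8.69 CPM in D5 (log2 fold change 2.96 ± 0.37, adjusted p = 7.08e-05). Nfkbia, which encodes the inhibitor IkB-alpha, had 321 and 246 CPM in D1, against 21.5 and 25.3 CPM in D5 (log2 fold change 3.59 ± 0.28, adjusted p = 9.07e-07), and Nfkbie, a second inhibitor, had 53.6 and 31.5 CPM in D1, against 1.85 and 3.83 CPM in D5 (log2 fold change 3.86 ± 0.33, adjusted p = 6.1e-07). Some regulators of the list did not pass the test. Map3k14, the kinase NIK, had 9.96 and 7.39 CPM in D1 and 8.21 and 6.39 CPM in D5 (adjusted p = 0.584), and Traf3, its negative regulator, had 116 and 128 CPM in D1 and 116 and 103 CPM in D5 (adjusted p = 0.395). Cyld, a deubiquitinase that restrains NF-kB, is on chromosome 8 and in another list, that of myeloma genes, and was lower in D1, with 4.31 and 2.50 CPM in D1, against 57.0 and 45.2 CPM in D5 (log2 fold change -4.02 ± 0.27, adjusted p = 7.64e-08). The median of the NF-kB list was 1.90, or 0.93 with genes that had no count in one line set at their bounds, and leaving out any one of the 4 libraries left 13 or 14 genes higher.

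Of 13 BCL2 family members tested, 4 were higher and 2 lower in D1, together a share close to that over all genes. Bcl2 (chromosome 1, 106538176 to 106714290) had 101 and 44.6 CPM in D1, against 0.795 and 1.02 CPM in D5 (log2 fold change 6.24 ± 0.59, adjusted p = 1.53e-05). Bcl2l1, which encodes BCL-XL (chromosome 2, 152758732 to 152833803), had 109.8 and 108 CPM in D1, against 3.18 and 3.32 CPM in D5 (log2 fold change 5.05 ± 0.52, adjusted p = 2.11e-05). Bcl2l11, which encodes the killer protein BIM (chromosome 2, 128126038 to 128162547), had 12.1 and 21.4 CPM in D1, against 173 and 135 CPM in D5 (log2 fold change -3.15 ± 0.25, adjusted p = 4.12e-07). Both survival genes were thus many-fold higher in D1 and Bcl2l11 lower, while Mcl1, the survival protein on which plasma cells depend, had 665 and 693 CPM in D1 and 648 and 644 CPM in D5 and did not pass the test (adjusted p = 0.698). In D4, Bcl2 stood at 8.15 CPM and Bcl2l1 at 65.5 CPM. Bbc3, the p53 target that encodes the pro-apoptotic protein PUMA, was higher in D1, with 74.6 and 52.9 CPM in D1, against 19.6 and 22.5 CPM in D5 (log2 fold change 1.59 ± 0.25, adjusted p = 0.000171).

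Targets of p53 had 9 of 18 genes higher and 1 lower in D1, with a median of 0.56. Gadd45a, a stress-induced growth arrest gene, had 9.69 and 6.41 CPM in D1, against 0.53 and 1.28 CPM in D5 (log2 fold change 3.07 ± 0.71, adjusted p = 0.00344). Eda2r, a death receptor, had 19.4 and 12.3 CPM in D1, against 2.91 and 7.16 CPM in D5 (log2 fold change 1.63 ± 0.57, adjusted p = 0.0425), a call lost without D1 replicate 1 (adjusted p = 0.202), D1 replicate 2 (adjusted p = 0.0593) or D5 replicate 1 (adjusted p = 0.239). Sesn1, which restrains mTORC1, was the one lower gene, with 100.4 and 76.3 CPM in D1, against 476 and 328 CPM in D5 (log2 fold change -2.19 ± 0.28, adjusted p = 6.78e-05). Trp53 itself had 93.7 and 107 CPM in D1, against 63.9 and 67.2 CPM in D5 (log2 fold change 0.62 ± 0.16, adjusted p = 0.0059).

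MHC class II genes, which present antigen to CD4 T cells, were higher in D1 for 6 of 14 genes and lower for 2. The higher count was 4 without D1 replicate 2 or either D5 replicate, and the lower count was 1 without D1 replicate 2 or D5 replicate 2. The element CCAAT, part of the conserved Y box of class II promoters, was searched anywhere in the windows on both strands. It was in 10 of 11 windows of the 10 list genes that matched (90.9%), against 37.4% of all windows. The windows with it include those of the regulators Rfx5 and Rfxank and of H2-Eb2, which was lower in D1. The genes higher in D1 had it in 4 of 5 windows, so it did not set them apart within the list. The promoters of H2-Oa (chr17:34092129-34092428, plus strand) and H2-Ob (chr17:34238655-34238954, plus strand) are shown as the genes of the list that had counts in D1 and none in D5, with CCAAT or its complement in capitals.
H2-Oa: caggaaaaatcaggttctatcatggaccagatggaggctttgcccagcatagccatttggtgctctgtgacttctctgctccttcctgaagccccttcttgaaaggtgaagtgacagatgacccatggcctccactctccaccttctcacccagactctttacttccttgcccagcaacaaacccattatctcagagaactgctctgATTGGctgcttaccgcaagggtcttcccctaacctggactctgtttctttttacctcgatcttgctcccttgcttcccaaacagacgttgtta
H2-Ob: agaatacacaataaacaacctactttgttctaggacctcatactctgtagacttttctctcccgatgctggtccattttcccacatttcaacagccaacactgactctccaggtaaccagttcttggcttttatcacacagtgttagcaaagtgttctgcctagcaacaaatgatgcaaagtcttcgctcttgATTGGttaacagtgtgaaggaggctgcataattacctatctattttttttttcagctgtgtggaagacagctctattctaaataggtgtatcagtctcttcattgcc

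H2-Oa, a chain of the chaperone H2-O, had 42.8 and 32.0 CPM in D1, against 0 and 0 CPM in D5 and 0 CPM in D4. It was at least 47.9-fold higher in D1, as H2-Ob was by at least 4.64-fold, with 3.77 and 3.48 CPM in D1, against 0 and 0 CPM in D5. Cd74, the invariant chain (chromosome 18, 60803849 to 60812652), had 3253 and 2514 CPM in D1, against 3.97 and 11.2 CPM in D5 and 2899 CPM in D4 (log2 fold change 8.55 ± 0.42, adjusted p = 4.63e-08). H2-DMa, which loads peptide, had 22.3 and 22.5 CPM in D1, against 2.91 and 3.32 CPM in D5 (log2 fold change 2.83 ± 0.44, adjusted p = 0.000126). The WT libraries had 2889 to 4151 CPM of Cd74 and 15.6 to 27.6 CPM of H2-DMa. For Cd74 and H2-DMa, D1 was thus near WT and D5 below it. H2-Oa had 0 to 7.37 CPM in WT, below its level in D1. The log2 fold changes of the chains that bind peptide were smaller than that of Cd74. H2-Ab1 had 3.77 and 10.5 CPM in D1, against 1.59 and 1.28 CPM in D5 (log2 fold change 2.44 ± 0.86, adjusted p = 0.0444), and H2-Aa had 3.77 and 0.435 CPM in D1 and 0 and 0.256 CPM in D5 (adjusted p = 0.366). Rfxap, a subunit of the factor that binds these promoters, on chromosome 3, had 29.9 and 29.4 CPM in D1, against 73.9 and 67.7 CPM in D5 (log2 fold change -1.26 ± 0.23, adjusted p = 0.000519). The master regulator Ciita had 1.61 and 0.978 CPM in D1 and 0.265 and 0.767 CPM in D5 and did not pass the test (adjusted p = 0.662). The monocyte marker sum moved with these genes, as did the B cell marker sum, 284 and 240 CPM in D1 against 83.7 and 78.0 CPM in D5. The part of such cells was not tested. Cd79b, with 178 and 170 CPM in D1 against 71.8 and 66.5 CPM in D5, made most of the B cell sum. Ctss and Ly6c2 made most of the monocyte sum. In D4 the monocyte sum was 2769 CPM, with no count of Csf1r, Ccr2, Cd14, Fcgr3 or Cx3cr1. Of the B cell markers, Ms4a1, Cd22, Vpreb3 and Blk had no count in either D1 library.

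MHC class I genes were higher in D1 for 9 of 15 genes and lower for 1, with a median of 0.91. B2m, the light chain of all class I molecules (chromosome 2, 122147687 to 122153082), had 2283 and 2476 CPM in D1, against 480.4 and 416 CPM in D5 (log2 fold change 2.41 ± 0.20, adjusted p = 6.12e-07). Tapbp, which encodes tapasin (chromosome 17, 33919478 to 33929290), had 569 and 538 CPM in D1, against 75.3 and 80.5 CPM in D5 (log2 fold change 2.83 ± 0.18, adjusted p = 4.4e-08). H2-K1, a classical heavy chain, had 1744 and 2005 CPM in D1, against 435 and 372 CPM in D5 (log2 fold change 2.22 ± 0.18, adjusted p = 3.53e-07). The WT libraries had 2440 to 3674 CPM of B2m, 395 to 511 CPM of Tapbp and 1291 to 1684 CPM of H2-K1. D5 lay below WT for each of these genes, and D1 lay closer to WT. The heavy chain genes are near-identical copies and the handling of reads that map to several is not given, so their separate values are uncertain, but the light chain and tapasin have no such copy. The gene lower in D1 was Psmb10, an immunoproteasome subunit on chromosome 8, with 18.6 and 24.4 CPM in D1, against 51.4 and 59.0 CPM in D5 (log2 fold change -1.34 ± 0.20, adjusted p = 0.000116).

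Interferon response genes had 10 of 20 higher and 1 lower in D1, with a median of 2.12. Irf9, a subunit of the factor that type I interferon activates (chromosome 14, 55603985 to 55610030), had 67.3 and 72.1 CPM in D1, against 17.8 and 14.6 CPM in D5 (log2 fold change 2.11 ± 0.24, adjusted p = 9.34e-06). Zbp1, a sensor of Z-form nucleic acid, had 49.8 and 86.9 CPM in D1, against 11.1 and 17.6 CPM in D5 (log2 fold change 2.26 ± 0.48, adjusted p = 0.00381). Isg20, an exonuclease, was the gene lower in D1, with 60.6 and 57.4 CPM in D1, against 263 and 243 CPM in D5 (log2 fold change -2.10 ± 0.17, adjusted p = 4.52e-07). Irf9 and Zbp1 were thus higher in both D1 recipients, whereas some classical targets were near the detection limit in all 4 libraries. Ifit1 had 1.88 and 3.26 CPM in D1 and 0 and 0 CPM in D5, and Rsad2 had 3.50 and 0.652 CPM in D1 and 0.53 and 0.256 CPM in D5.

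Of 12 immune checkpoint ligands, 5 were higher and 1 lower in D1. Cd274, which encodes PD-L1 (chromosome 19, 29362107 to 29388095), had 213 and 134 CPM in D1, against 65.4 and 53.7 CPM in D5 (log2 fold change 1.53 ± 0.41, adjusted p = 0.0127), and its call was lost without D1 replicate 1 (adjusted p = 0.0761) or D5 replicate 2 (adjusted p = 0.0851). Nectin2, a ligand of TIGIT, had 24.0 and 24.3 CPM in D1, against 4.50 and 5.11 CPM in D5 (log2 fold change 2.32 ± 0.32, adjusted p = 4.57e-05). Tnfrsf14, the ligand of BTLA, had 21.3 and 20.7 CPM in D1, against 5.30 and 6.13 CPM in D5 (log2 fold change 1.87 ± 0.32, adjusted p = 0.000343). Cd276, which encodes B7-H3, was the lower one, with 4.31 and 3.58 CPM in D1, against 65.7 and 47.5 CPM in D5 (log2 fold change -3.86 ± 0.46, adjusted p = 1.29e-05).

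Of 26 plasma cell and B cell identity genes, 9 were higher and 5 lower in D1, and 5 were higher without D5 replicate 2. Xbp1, the factor of secretory differentiation, had 1329.5 and 1522 CPM in D1 and 1490.5 and 1894 CPM in D5 (adjusted p = 0.352), and Jchain had 696 and 941 CPM in D1 and 1509 and 724 CPM in D5 (adjusted p = 0.436). Sdc1, which encodes the CD138 used in the sort, had 927 and 843 CPM in D1, against 365 and 422 CPM in D5 (log2 fold change 1.17 ± 0.27, adjusted p = 0.00435). Tnfrsf17, which encodes BCMA, a survival receptor and therapy target (chromosome 16, 11313232 to 11320074), had 8.34 and 2.82 CPM in D1, against 58.6 and 83.6 CPM in D5 and 32.2 CPM in D4 (log2 fold change -3.87 ± 0.42, adjusted p = 2.65e-05). Tnfrsf13b, which encodes the related receptor TACI, went the other way, with 449.7 and 361 CPM in D1, against 121 and 112 CPM in D5 (log2 fold change 1.80 ± 0.21, adjusted p = 1.57e-05). These receptors thus differed in opposite directions. Bach2, a repressor of plasma cell differentiation (chromosome 4, 32238413 to 32586109), had 1.08 and 0.109 CPM in D1, against 27.6 and 23.3 CPM in D5 (log2 fold change -5.85 ± 1.08, adjusted p = 0.0015). Pou2f2, which encodes OCT2, had 56.8 and 60.8 CPM in D1, against 8.74 and 5.11 CPM in D5 (log2 fold change 3.09 ± 0.31, adjusted p = 5.36e-06). Irf4 had 2351 and 2264 CPM in D1 and 1511 and 1547 CPM in D5 (log2 fold change 0.59 ± 0.22, adjusted p = 0.0402), and leaving out any one of the 4 libraries ended that call.

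Ptprc, which encodes CD45, the phosphatase that activates SRC family kinases at the B cell receptor (chromosome 1, 138062859 to 138175756), had 272 and 248 CPM in D1, against 1.85 and 6.65 CPM in D5 and 1.69 CPM in D4 (log2 fold change 5.92 ± 0.34, adjusted p = 9.13e-08). The WT libraries had 543 to 794 CPM. D5 and D4 thus had almost no transcript of a gene whose product, as CD45.2, was part of the sort. Neutrophils and monocytes also carry CD45, and the markers of both summed higher in D1 than in D5, as given above. The neutrophil sum was 1379 and 427 CPM in the D1 libraries, where Ptprc had 272 and 248 CPM. In D4 the monocyte sum was 2769 CPM, with Ptprc at 1.69 CPM. The part of these cells in the Ptprc level was not tested. Of 19 B cell receptor signalling genes, 8 were higher and 2 lower in D1. Ptpn6, which encodes the inhibitory phosphatase SHP-1, had 106 and 116 CPM in D1, against 13 and 26.3 CPM in D5 (log2 fold change 2.49 ± 0.27, adjusted p = 9.34e-06). Cd79b, a chain of the receptor, had 178 and 170.0 CPM in D1, against 71.8 and 66.5 CPM in D5 (log2 fold change 1.33 ± 0.16, adjusted p = 1.69e-05).

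Among 15 surface proteins targeted in myeloma, 7 were higher and 4 lower in D1. Besides Cd74, Tnfrsf13b and Sdc1, Icam1 was higher, with 142 and 137 CPM in D1, against 21.5 and 13 CPM in D5 (log2 fold change 3.01 ± 0.21, adjusted p = 9.66e-08). Besides Tnfrsf17, Cd38 on chromosome 5 was lower, with 0.538 and 0 CPM in D1 and 2.38 and 0.767 CPM in D5, where both lines were near the detection limit. The lower count was 2 without D1 replicate 2 or without D5 replicate 1.

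Genes of the endoplasmic reticulum were split. Of 23 unfolded protein response genes, 3 were higher and 8 lower in D1. When any one of the 4 libraries was left out, 4 or 5 were lower. In a fit to the D1 and D5 libraries alone, 7 were higher. Ern1, which encodes the stress sensor IRE1-alpha (chromosome 11, 106397620 to 106487796), had 627 and 589 CPM in D1, against 181 and 159 CPM in D5 (log2 fold change 1.84 ± 0.26, adjusted p = 0.000117). Sel1l, a scaffold of the degradation machinery, had 5532 and 5548 CPM in D1, against 2163 and 2009.9 CPM in D5 (log2 fold change 1.41 ± 0.28, adjusted p = 0.00165). Calr, which encodes calreticulin, on chromosome 8, had 2109 and 2001 CPM in D1, against 5203 and 5281 CPM in D5 (log2 fold change -1.35 ± 0.15, adjusted p = 6.03e-06). Herpud1, another gene of the degradation machinery, also on chromosome 8, had 373 and 262 CPM in D1, against 846 and 699 CPM in D5 (log2 fold change -1.28 ± 0.26, adjusted p = 0.00145). None of these overlapped between the lines.

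Of 18 genes of the ATF4 response, 8 were higher and 5 lower in D1. Trib3, a pseudokinase induced by ATF4 and CHOP, had 17.2 and 15.1 CPM in D1, against 0 and 0.256 CPM in D5, and the ratio of D1 to D5 was 121, with an exact 95% counting interval of 21.4 to 4790. Ddit3, which encodes CHOP (chromosome 10, 127290793 to 127296291), had 32.6 and 11.5 CPM in D1, against 1.85 and 3.58 CPM in D5 (log2 fold change 2.94 ± 0.49, adjusted p = 0.000377). Chac1, which degrades glutathione, had 62.2 and 20.6 CPM in D1, against 1.06 and 3.07 CPM in D5 (log2 fold change 4.25 ± 0.84, adjusted p = 0.00281), a call lost in a fit to the D1, D5 and D4 libraries alone (adjusted p = 0.0721). Slc3a2, the heavy chain of amino acid transporters, had 2245 and 1699 CPM in D1, against 227 and 251 CPM in D5 (log2 fold change 3.04 ± 0.31, adjusted p = 1.24e-05). These genes were higher in both D1 recipients without overlap. Among the lower genes, Phgdh, the entry enzyme of serine synthesis, had 70.2 and 67.8 CPM in D1, against 152 and 176 CPM in D5 (log2 fold change -1.25 ± 0.23, adjusted p = 0.00064), and Slc7a5, the light chain partner of Slc3a2 in a transporter, had 268 and 274 CPM in D1, against 619 and 806 CPM in D5 (log2 fold change -1.39 ± 0.26, adjusted p = 0.00105). Phgdh lies on chromosome 3 and Slc7a5 on chromosome 8, and the lower count was 3 without D1 replicate 2 or without D5 replicate 2.

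Glycolysis genes had 2 of 20 higher and 8 lower in D1, and 4 or 5 lower when any one of the 4 libraries was left out. In a fit to the D1 and D5 libraries alone, 5 of them were higher. Aldoc, the brain form of aldolase (chromosome 11, 78323073 to 78327781), had 38.5 and 22.7 CPM in D1, against 1.59 and 1.28 CPM in D5 (log2 fold change 4.37 ± 0.45, adjusted p = 3.39e-06). Pfkfb3, which makes the activator of phosphofructokinase, had 21.5 and 31.7 CPM in D1, against 5.30 and 6.65 CPM in D5 (log2 fold change 2.17 ± 0.36, adjusted p = 0.000233). Eno1, the ubiquitous enolase, had 60.8 and 81.5 CPM in D1, against 156 and 179 CPM in D5 (log2 fold change -1.23 ± 0.21, adjusted p = 0.000289). Oxidative phosphorylation had few calls, with 0 of 28 genes higher and 7 lower, and the lower count was 2 without D1 replicate 1 and 3 without D5 replicate 1. Cox4i1, a subunit of cytochrome c oxidase on chromosome 8, had 141 and 142 CPM in D1, against 297 and 317 CPM in D5 (log2 fold change -1.12 ± 0.15, adjusted p = 4.01e-05), and Atp5b, a subunit of the ATP synthase, had 856 and 929.9 CPM in D1, against 1477 and 1622 CPM in D5 (log2 fold change -0.80 ± 0.13, adjusted p = 0.000206).

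Cholesterol synthesis had 6 of 20 genes higher and 3 lower, shares not far from the background. Single enzymes still stood far apart. Hsd17b7, an enzyme of the later steps (chromosome 1, 169949535 to 169969242), had 9.96 and 15 CPM in D1, against 0 and 0 CPM in D5, at least 16-fold higher in D1. Pmvk on chromosome 3 had 11.6 and 11.3 CPM in D1, against 45.8 and 44.5 CPM in D5 (log2 fold change -1.98 ± 0.27, adjusted p = 3.87e-05).

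Adhesion genes had 8 of 25 higher and 4 lower in D1, and 2 lower without D1 replicate 2. The lower count was 7 in a fit to the D1 and D5 libraries alone. Cdh1, which encodes E-cadherin (chromosome 8, 106603350 to 106670247), had 50.3 and 18.4 CPM in D1, against 1.59 and 1.28 CPM in D5 and 70.7 CPM in D4 (log2 fold change 4.53 ± 0.92, adjusted p = 0.00251), and it was higher although it lies on chromosome 8. Epcam, another epithelial adhesion molecule, had 698 and 638 CPM in D1, against 38.2 and 67.7 CPM in D5 (log2 fold change 3.66 ± 0.51, adjusted p = 0.000374). Itga6, which encodes the laminin receptor chain alpha 6 (chromosome 2, 71786886 to 71858427), had 4.31 and 3.15 CPM in D1, against 11.9 and 15.6 CPM in D5 (log2 fold change -1.92 ± 0.43, adjusted p = 0.00259). Laminins and basement membrane genes had 9 of 15 higher and 3 lower, but 5 higher without D1 replicate 1 and 4 without D5 replicate 2. The genes lower in D1 differed in both recipients without overlap. Nid2, which encodes nidogen 2 (chromosome 14, 19751257 to 19811787), had 4.04 and 2.72 CPM in D1, against 244 and 219 CPM in D5 (log2 fold change -6.17 ± 0.36, adjusted p = 2.17e-08). Hspg2, which encodes perlecan, had 2.96 and 1.19 CPM in D1, against 76.3 and 61.1 CPM in D5 (log2 fold change -5.20 ± 0.47, adjusted p = 1.15e-06). Hpse, the heparanase that cleaves its side chains and those of CD138, on chromosome 5, had 3.77 and 9.99 CPM in D1, against 79.0 and 101 CPM in D5 (log2 fold change -3.61 ± 0.55, adjusted p = 0.000399). The median of the list was 1.61, or 1.32 with genes at no count in one line set at their bounds. Stroma and endothelium markers, from cells that also make these proteins, summed to 379.8 and 263 CPM in D1, against 333 and 292 CPM in D5, and so overlapped between the lines.

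Sialyltransferases, which cap glycans with sialic acid, had 3 of 13 genes higher and 4 lower, shares near the background. St6gal2 (chromosome 17, 55445118 to 55514581) had 0.269 and 0.109 CPM in D1, against 182 and 162 CPM in D5, and the ratio of D5 to D1 was 1110, with an exact 95% counting interval of 307 to 9190. St6gal1 (chromosome 16, 23224729 to 23360350) had 82.6 and 21.4 CPM in D1, against 918 and 914 CPM in D5 (log2 fold change -4.18 ± 0.62, adjusted p = 0.000633), and the call was lost in a fit to the D1 and D5 libraries alone (adjusted p = 0.0531). St8sia6, which makes ligands of inhibitory Siglecs (chromosome 2, 13651018 to 13794734), was higher in D1, with 314 and 329 CPM in D1, against 0.795 and 1.53 CPM in D5 and 96.8 CPM in D4 (log2 fold change 8.06 ± 0.48, adjusted p = 2.65e-07). These genes did not overlap between the lines.

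Cytokine receptors and their kinases had 10 of 27 genes higher and 5 lower in D1, and the lower count was 3 without D1 replicate 1 and 2 without D5 replicate 1. Il2rg, the common gamma chain (chromosome X, 101264385 to 101268255), had 26.4 and 16.4 CPM in D1, against 0.795 and 0.511 CPM in D5 (log2 fold change 4.94 ± 0.56, adjusted p = 1.49e-05). Pim2 (chromosome X, 7878306 to 7883432) had 111 and 89.5 CPM in D1, against 5.30 and 6.65 CPM in D5 (log2 fold change 4.06 ± 0.36, adjusted p = 1.5e-06), and Pim1 had 595 and 541 CPM in D1, against 69.2 and 65.9 CPM in D5 (log2 fold change 3.07 ± 0.25, adjusted p = 6.53e-07), both survival kinases induced by STAT signalling. Insr, the insulin receptor gene on chromosome 8, had 5.65 and 1.41 CPM in D1, against 46.1 and 43.4 CPM in D5 (log2 fold change -3.94 ± 0.37, adjusted p = 2.23e-06). In the TGF-beta family, 4 of 21 genes were higher and 9 lower. Tgfb1, the ligand (chromosome 7, 25687002 to 25705077), had 74.6 and 76.6 CPM in D1, against 4.50 and 2.56 CPM in D5 (log2 fold change 4.41 ± 0.33, adjusted p = 2.9e-07). Bmpr1a, a receptor for bone morphogenetic proteins (chromosome 14, 34411061 to 34503336), had 2.69 and 0.435 CPM in D1, against 21.7 and 34.5 CPM in D5 (log2 fold change -4.52 ± 0.54, adjusted p = 1.72e-05). Smad1, which carries that signal to the nucleus, on chromosome 8, had 0.807 and 0 CPM in D1, against 58.0 and 50.6 CPM in D5, and the ratio of D5 to D1 was 234, with an exact 95% counting interval of 79.4 to 1140. Tgfb3, another ligand, had 0.538 and 0.109 CPM in D1, against 6.36 and 9.71 CPM in D5, and the ratio of D5 to D1 was 34.7, with an exact 95% counting interval of 11.3 to 173. The ligands Tgfb1 and Tgfb3 thus differed in opposite directions.

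Genes altered in human myeloma had 2 of 17 higher and 10 lower in D1, with a median of -1.26, and 1 higher without D5 replicate 1. Kdm6a, the X-linked histone demethylase UTX (chromosome X, 18160862 to 18279936), had 3.23 and 0 CPM in D1, against 65.2 and 68.5 CPM in D5 and 32.2 CPM in D4 (log2 fold change -6.02 ± 0.76, adjusted p = 0.000171). Klf9 (chromosome 19, 23141226 to 23168129) had 0.538 and 0.326 CPM in D1, against 81.3 and 111 CPM in D5 and 0.983 CPM in D4 (log2 fold change -7.84 ± 0.50, adjusted p = 5.57e-08). Both were low in both D1 recipients, and D4 was with D1 for Klf9 but not for Kdm6a. Of the 17 genes, 7 lie on chromosomes 3, 5 and 8, and the other genes had 1 higher and 6 lower. Of 19 Polycomb, DNA methylation and TET genes, 3 were higher and 4 lower. The higher count was 0 without D1 replicate 1 or D5 replicate 2, and it was 1 without D1 replicate 2. It was 5 in a fit to the D1, D5 and D4 libraries alone. Ezh2, the catalytic subunit of PRC2 (chromosome 6, 47530274 to 47595270), had 4.84 and 1.85 CPM in D1, against 16.4 and 28.9 CPM in D5 (log2 fold change -2.95 ± 0.46, adjusted p = 0.000231). Bmi1, a subunit of PRC1, had 260.0 and 293 CPM in D1, against 837 and 779.8 CPM in D5 (log2 fold change -1.55 ± 0.17, adjusted p = 7.22e-06). Tet1, which oxidises methylcytosine, had 0.538 and 0 CPM in D1, against 13.8 and 6.13 CPM in D5, and the ratio of D5 to D1 was 63.9, with an exact 95% counting interval of 17.1 to 537.

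Pbx3 (chromosome 2, 34171457 to 34372045), a homeodomain partner of HOX proteins, had 91.2 and 86.3 CPM in D1, against 0.795 and 2.04 CPM in D5 (log2 fold change 5.92 ± 0.33, adjusted p = 1.57e-08). The HOXA genes of the list were at or near 0 in both lines. Lin28b, an inhibitor of let-7 maturation (chromosome 10, 45376617 to 45486314), had 77.0 and 90.5 CPM in D1, against 3.71 and 6.65 CPM in D5 (log2 fold change 4.01 ± 0.36, adjusted p = 1.03e-06). Hmga1, a let-7 target, went the other way, with 52.5 and 52.0 CPM in D1, against 132 and 146 CPM in D5 (log2 fold change -1.41 ± 0.24, adjusted p = 0.000246). Of 9 genes of the Lin28b list, 4 were higher and 1 lower, and 2 were higher without D1 replicate 1 or either D5 replicate.

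Some genes were on in one line and off in the other. With off as no count in both libraries of a line and on as at least 10 CPM in both of the other, 32 genes were on in D1 alone and 27 in D5 alone. RefSeq promoter windows were found for 20 of the genes on in D1 (26 windows) and 20 of those on in D5 (29 windows). The median was 7.5 CG pairs a window for D1 (quartiles 4.25 and 17.75) and 14 for D5 (quartiles 8 and 24), and these ranges overlapped. It was 20 in the windows of all genes tested and 7 in all promoter windows. The promoters of Fads2b (chr2:85518886-85519185, minus strand, GRCm38.p6, 3 CG pairs) and Pdia5 (chr16:35490824-35491123, minus strand, 15 CG pairs) are shown to set a window poor in CG pairs, of a gene on in D1, beside a richer one, of a gene on in D5, with the CG pairs in capitals. The Fads2b window lies below the lower quartile of its set, and the Pdia5 window lies near the median of its set. DNA methylation was not measured.
Fads2b: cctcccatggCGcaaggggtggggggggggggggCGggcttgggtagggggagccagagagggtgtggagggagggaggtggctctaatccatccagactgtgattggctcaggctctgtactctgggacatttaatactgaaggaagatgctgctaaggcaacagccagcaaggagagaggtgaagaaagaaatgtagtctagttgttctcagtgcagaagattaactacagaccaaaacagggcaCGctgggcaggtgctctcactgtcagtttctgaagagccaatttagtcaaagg
Pdia5: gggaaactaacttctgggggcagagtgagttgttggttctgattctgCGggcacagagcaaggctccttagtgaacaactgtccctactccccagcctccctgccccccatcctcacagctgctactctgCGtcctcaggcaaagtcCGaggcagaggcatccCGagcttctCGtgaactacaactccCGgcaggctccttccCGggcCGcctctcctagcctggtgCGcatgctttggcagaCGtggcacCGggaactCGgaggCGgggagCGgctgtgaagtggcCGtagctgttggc

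Cdh19, a cadherin of the glial lineage (chromosome 1, 110888002 to 110977601), had 294 and 335 CPM in D1, against 0 and 0 CPM in D5, at least 403-fold higher in D1, and 34.4 CPM in D4. Fads2b, a fatty acid desaturase gene (chromosome 2, 85484092 to 85518935), had 106 and 116 CPM in D1, against 0 and 0 CPM in D5, at least 143-fold higher, and 20.1 CPM in D4. Rbm24, an RNA-binding protein of muscle, had 57.3 and 101 CPM in D1, against 0 and 0 CPM in D5, at least 101-fold higher, and 0 CPM in D4. The others on in D1 with the largest bounds included Esrp1, an epithelial splicing factor (at least 97.6-fold), Arhgap5 (at least 79.3-fold), Ermn (at least 78.5-fold) and Liph (at least 64-fold). The Ermn call was lost without D1 replicate 1 or either D5 replicate. Cdh19, Rbm24 and Esrp1 are best known from glia, muscle and epithelia. Ly6d, a lymphoid surface protein, had 565 and 574 CPM in D1, against 0 and 0.256 CPM in D5, a ratio of D1 to D5 of 4390, with an exact 95% counting interval of 788 to 174000. Chst1, a keratan sulphate sulphotransferase (chromosome 2, 92599632 to 92615252), had 1657 and 1824 CPM in D1, against 1.06 and 1.02 CPM in D5 (log2 fold change 10.66 ± 0.58, adjusted p = 3.06e-07).

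Fabp5, a fatty acid binding protein (chromosome 3, 10012585 to 10016610), had 0 and 0 CPM in D1, against 139 and 168 CPM in D5, at least 271-fold lower in D1, and 6.32 CPM in D4. Pdia5, a disulphide isomerase of the endoplasmic reticulum (chromosome 16, 35397308 to 35490919), had 0 and 0 CPM in D1, against 117 and 153 CPM in D5, at least 238-fold lower, and 133 CPM in D4. Ryk, a WNT receptor (chromosome 9, 102834920 to 102908307), had 0 and 0 CPM in D1, against 76.3 and 66.5 CPM in D5, at least 126-fold lower, and 33.9 to 53.2 CPM in WT. Pdia5 and Ryk were thus not detected in D1 at this depth, while Pdia5 was present in D4 and Ryk in WT. Slco5a1, Mamdc2, Gabra4, Rtn1, Tspan7, Zfp365 and Tdrd1 were lower by at least 169, 133, 119, 113, 106, 102 and 98.4-fold, in that order. D4 shared neither pattern as a whole: it had at least 10 CPM for 10 of the 32 genes on in D1 and 6 of the 27 on in D5, and under 1 CPM for 14 of each. Of the genes on in D1, 8 were at 1 CPM or more in every WT and V library and 10 below it in all of them. Of the genes on in D5, 10 were at 1 CPM or more in all of these libraries and 6 below it in all.

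**Figure D3:**
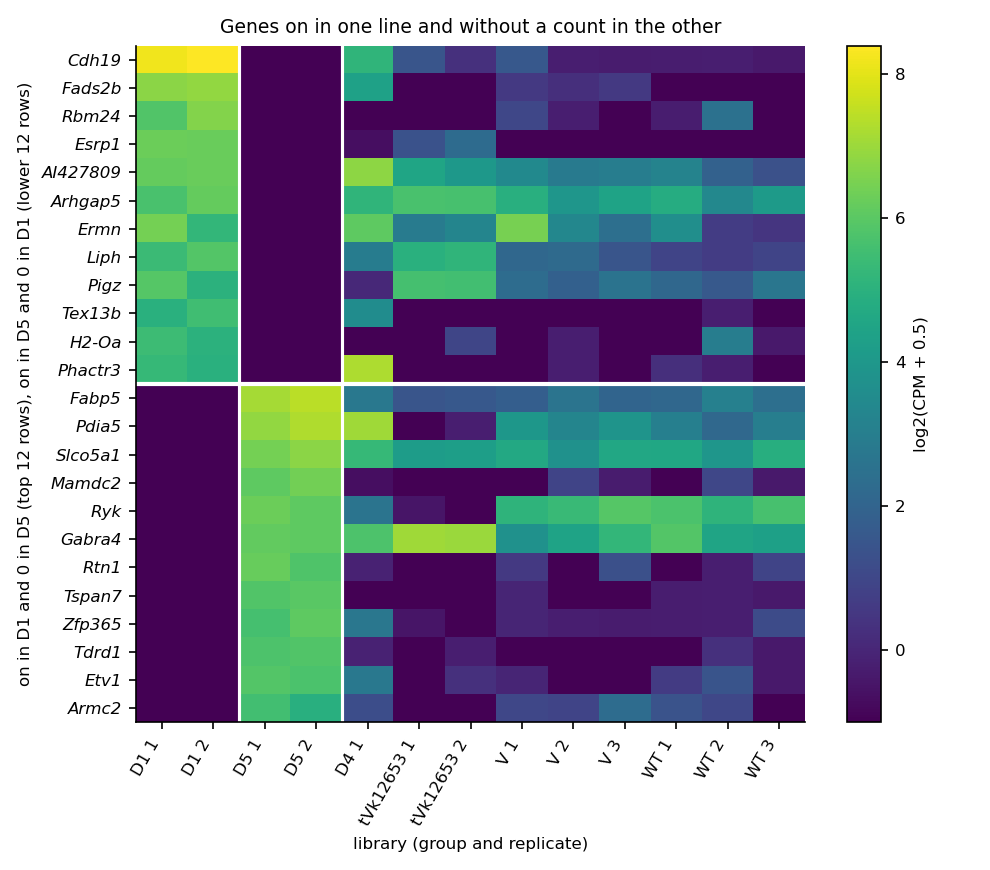
Heat map of log2(CPM + 0.5) for 24 genes (rows) in the 13 libraries (columns, from D1 and D5 through D4, tVk12653 and V to WT), with the upper 12 genes on in D1 and off in D5 and the lower 12 on in D5 and off in D1. The D4 column is mixed, with some genes of each set on, and Ryk is on in every WT library.

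Genes lower in D1 were most frequent on 3 chromosomes. The median log2 fold change was -0.83 on chromosome 5 (52 genes higher and 422 lower of 804), -0.66 on chromosome 8 (53 and 320 of 684) and -0.41 on chromosome 3 (91 and 224 of 599). On the other autosomes and the X it ran from -0.015 on chromosome 13 to 0.30 on chromosome 7. On chromosomes 3, 5 and 8 together 83.1% of the called genes were lower in D1, against 43.4% on the other chromosomes. On the sex chromosomes, Xist, the RNA that coats an inactive X, had 40.1 and 3.80 CPM in D1 and 6.09 and 97.6 CPM in D5, so that recipients of one line differed, and the Y-linked Ddx3y had 0 and 0.435 CPM in D1 and 0 and 0 CPM in D5. Each library was then set against the WT mean, centred on its own median over chromosomes 1 to 19. On chromosome 5 the median difference from WT was -0.76 and -0.83 in D1, against 0.04 and 0.03 in D5, and -0.90 in D4. On chromosome 8 it was -0.74 and -0.78 in D1, against -0.05 and -0.09 in D5, and -0.01 in D4. Chromosome 3 differed in the other line, with 0.11 and 0.10 in D1, against 0.52 and 0.51 in D5, and 0.02 in D4. D1 was thus below WT on chromosomes 5 and 8, and D5 above it on chromosome 3. DNA was not measured, and changes in copy number and in transcription cannot be told apart here.

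**Figure D4:**
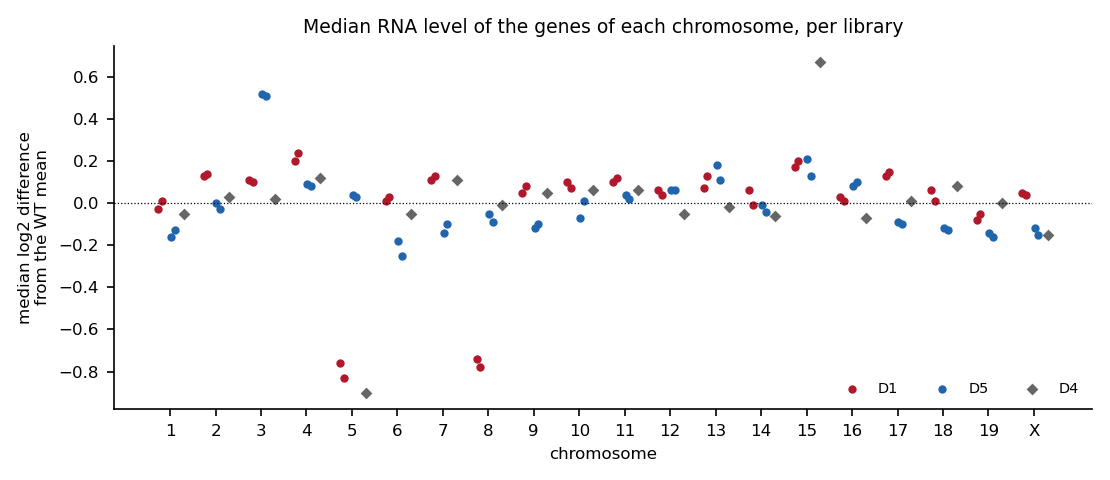
Median log2 difference from the WT mean of each library (vertical axis) for chromosomes 1 to 19 and X (horizontal axis), for D1 (2 libraries), D5 (2 libraries) and D4 (1 library), centred on each library's median over chromosomes 1 to 19. D1 drops on chromosomes 5 and 8, D5 is raised on chromosome 3, and D4 drops with D1 on chromosome 5 (-0.90) and is raised on chromosome 15 (0.67).

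Consecutive blocks of 25 tested genes (with the remainder in the last block) showed how far each shift extended. On chromosome 5, 30 of 32 blocks had a median below 0 for D1 minus D5, and 27 had both D1 libraries more than 0.5 below WT, against 3 blocks for D5, while D4 was that far below in 29. The exceptions were the blocks that start at Nudt9 (median 0.45) and Taok3 (0.05). On chromosome 8 all 27 blocks were below 0, and 18 had both D1 libraries more than 0.5 below WT, against 2 for D5 and 2 for D4. The block from Klhl2 was below WT in both lines. On chromosome 3, 18 of 23 blocks were below 0, and in 11 both D5 libraries were more than 0.5 above WT, against 0 blocks for D1 and 1 for D4. Those 11 lie between the blocks that start at Mgst2 (GRCm38.p6, position 51636912) and at Ahcyl1 (107663120), so this shift did not span the whole chromosome. Nras is in that stretch, in the block that starts at Igsf3, where the median difference from WT was -0.18 and -0.01 in D1, against 0.79 and 0.80 in D5, and -0.43 in D4.

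**Figure D5:**
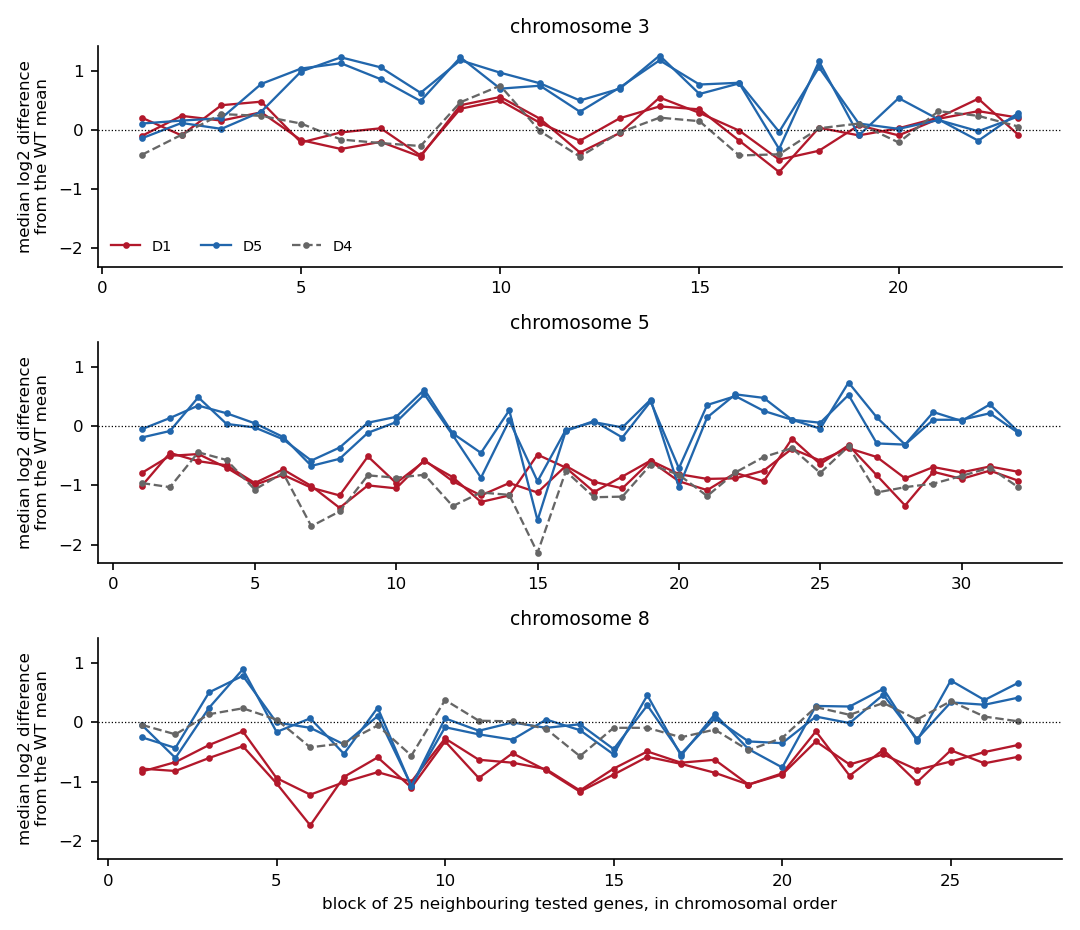
Median log2 difference from the WT mean in consecutive blocks of 25 genes along chromosomes 3, 5 and 8 (panels, block number on the horizontal axis), with lines for D1 (2 libraries), D5 (2 libraries) and D4 (1 library, dashed). The D1 lines lie below D5 along nearly all of chromosomes 5 and 8, and on chromosome 3 both D5 lines lie above the D1 lines from the 5th to the 18th block.

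The most shifted windows are described by their most abundant called genes. In a window of 25 genes from Serp1 to Lxn on chromosome 3, 17 were lower in D1 and 1 higher, with a median of -1.50. Serp1, which stabilises proteins at the translocon, had 1201 and 1043 CPM in D1, against 3745 and 4090.2 CPM in D5 (log2 fold change -1.80 ± 0.17, adjusted p = 1.58e-06), and Ssr3, a translocon-associated subunit, had 602 and 657 CPM in D1, against 2315 and 2414 CPM in D5 (log2 fold change -1.91 ± 0.16, adjusted p = 5.36e-07). In the window from Zfp276 to Egln1 on chromosome 8, 22 of 25 genes were lower and 0 higher, with a median of -1.52. Fanca, a Fanconi anaemia gene in this window, had 16.7 and 22.5 CPM in D1, against 103 and 100.4 CPM in D5 (log2 fold change -2.35 ± 0.24, adjusted p = 3.92e-06). Windows higher in D1 were found elsewhere. The one from Col11a2 to Prrt1 on chromosome 17, within the MHC, had 12 genes higher and 1 lower, with a median of 1.61.

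Markers of other cells were looked at gene by gene. Of 20 neutrophil markers, 11 were higher in D1 and 0 lower, but 3 were higher without D1 replicate 1, 1 without D5 replicate 1 and 6 without D5 replicate 2. S100a9, an abundant granulocyte calcium-binding protein, had 273 and 80.9 CPM in D1, against 12.7 and 25.6 CPM in D5 (log2 fold change 3.19 ± 0.84, adjusted p = 0.016), and the call was lost without D1 replicate 1 (adjusted p = 0.0768), without D5 replicate 1 (adjusted p = 0.097) and in a fit to the D1 and D5 libraries alone (adjusted p = 0.104). D1 replicate 1 lay well above D1 replicate 2, and both lay above the D5 libraries. Of 16 monocyte and macrophage markers, 7 were higher and 0 lower (4 without D5 replicate 2). Ctss, a lysosomal protease, had 1133 and 883 CPM in D1, against 365 and 388 CPM in D5 (log2 fold change 1.42 ± 0.19, adjusted p = 3.79e-05), and Ly6c2, also a plasma cell surface protein, had 501 and 644 CPM in D1, against 2.38 and 22.2 CPM in D5 (log2 fold change 5.53 ± 1.24, adjusted p = 0.00864), and these genes made most of the sum. For Ly6c2 the D5 libraries also lay far apart. Lyz2, a myeloid lysozyme, had 60.8 and 30.3 CPM in D1 and 3.44 and 9.20 CPM in D5 (adjusted p = 0.0514). T and NK cell markers summed to 9.15 and 9.67 CPM in D1, against 5.30 and 6.13 CPM in D5. Erythroid markers summed to 134 and 173 CPM in D1, against 211 and 247 CPM in D5.

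The standing of the lines against the other libraries was uneven. WT was nearer to D1 than to D5 for 65.8% of the genes higher in D1 and 60.1% of those lower, against 59.7% of all genes tested. D4 was nearer to D1 for 71.6% of the genes higher and 69.2% of those lower, against 61.5% of all. Among the differences described above, D4 was near D1 for Ccnd2, Cd74, Klf9 and the level of chromosome 5, and near D5 for Ptprc, Pdia5 and the level of chromosome 8.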

How the data were processed

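RNA of sorted plasma cells was extracted with an RNeasy Micro kit and made into stranded total RNA libraries with the SMARTer Stranded Total RNA-Seq v1 Pico Input Mammalian kit, per the labels' protocols. STAR 2.6.1d and the build GRCm38.p6 are named in the submitters' processing notes. The deposited values are raw counts per gene symbol, 1 column per library, not normalized by the authors. How reads were assigned to genes, on which gene models, with which strand rule and with what treatment of multi-mapped reads is not given in the sources used here, so overlapping and antisense genes cannot be told apart.

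Counts of all 13 libraries were fitted together in edgeR 4.0.16 under R 4.3.3, because 2 libraries a line give little information on the spread. The fit used TMM scaling, a robust quasi-likelihood test and 1 mean per group. Genes were kept at a count of about 10 in at least 1 library, as D4 is a group of 1, and 15 over all libraries. The contrast was D1 minus D5, p-values were adjusted by Benjamini-Hochberg over the 12835 genes kept, and the common biological coefficient of variation was 0.195. Errors beside log2 fold changes are approximate standard errors. They were derived from the test, as the absolute log2 fold change over the square root of its F statistic. With counts of 0 in both libraries of a line, the bound was set against 3 counts per library (0.807 and 0.326 CPM in D1, 0.795 and 0.767 CPM in D5), and ratios of genes with 1 to 3 counts carry exact 95% intervals. Intervals and bounds cover counting error only. On simulated counts with known changes, 34% of 2-fold and 74% of 4-fold changes were recovered, with 11 false calls. The simulation changed 100 genes by each fold, a far smaller share than was called in the data, so these rates need not carry over. The 2 libraries of a line differed by more than sampling noise (chi-square per degree of freedom 9.66 in D1 and 4.97 in D5) and were kept as separate samples.

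Of 22997 gene symbols, 2713 had no count, 22000 matched RefSeq gene tables by symbol and 144 by synonym, which gave positions and promoters. The members and the 32 pathway and 10 marker lists were chosen with earlier results of these data known. Genes were named by a rule: the 10 with the largest called change in each direction at a mean log2 CPM of at least 3, up to 4 called genes per list by size of change, the genes on in one line alone with the highest CPM, called genes of the most shifted windows, 3 markers per cell type, and Myc, Nras, Sdc1, Ptprc, Xist and Ddx3y. Dusp6, Spry4, Etv5, Ier3, Fos, Ccnd3, Mki67, Mcm4, Nfkbia, Nfkb2, Map3k14, Traf3, Cyld, Mcl1, Trp53, H2-Ob, H2-Ab1, H2-Aa, Ciita, Psmb10, Ifit1, Rsad2, Cd38, Phgdh and Slc7a5 fell outside it and were chosen after their values were seen. Alternatives were other scalings, filters, a DESeq2 1.42.0 fit, fits to fewer libraries, a block for the replicate number, a fold threshold, and leaving out each library. Some genes of the lists count in the totals but are not reported here by name.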

Additional observations from a re-analysis of the deposited data

How the results depend on the processing

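The counts of 2568 genes higher and 2783 lower in D1 ran from 1763 to 2042 higher and from 2070 to 2159 lower when 1 of the 4 libraries was left out. They were 2392 and 2942 with RLE size factors, 2339 and 2857 with DESeq2, 2743 and 2824 with no filter on low counts, and 2919 and 3006 in a fit to the D1 and D5 libraries alone. That last fit also had 2 genes of RAS-ERK output higher, 1 of ribosome biogenesis higher, 1 of MHC class II lower and 1 myeloma gene higher. Tested against a 2-fold change in place of no change, they were 916 and 955. Libraries of the same replicate number did not deviate together (r = -0.0384 over 12835 genes), so the numbers do not pair them, and a fit with the replicate number as a block gave 2567 and 2855. The median of chromosome 5 was -0.88 with RLE size factors and -0.86 with a minimum count of 30, that of chromosome 8 was -0.71 and -0.73, and that of chromosome 3 was -0.46 with RLE size factors. Leaving out 1 library gave -0.88 to -0.81 on chromosome 5, -0.71 to -0.64 on chromosome 8 and -0.49 to -0.39 on chromosome 3. The counts of genes on in one line alone, 32 in D1 and 27 in D5, were 50 and 44 with on at 5 CPM, 20 and 17 with on at 20 CPM, and 108 and 92 with off at up to 3 counts. Stability was counted for genes named by the rule, and not for those chosen after their values were seen. Of the 162 called genes named by the rule, 113 stayed past the test in each of the 16 settings in which they were fitted. In these settings 0 changed sign. Genes of chromosomes 3, 5 and 8, for one, were not fitted where those were left out. With the genes of chromosomes 3, 5 and 8 left out, 1970 were higher and 2232 lower, and with marker genes of other cells left out, 2565 and 2781. Both of these settings were chosen after seeing the data. The cause of these differences was not tested. With 2 recipients per line and 3401667 counts in the shallowest library, small changes of low genes are beyond reach.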

Other observations

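The tVk12653 tumour, which carries no engineered Nras allele in its label, was also below WT on chromosome 8. Its median difference from the WT mean, centred as for the other libraries, was -0.70 and -0.73 there, and -0.22 and -0.27 on chromosome 5. The V libraries lay between -0.01 and 0.01 on chromosome 8. Tumours tVk12653 and D1 thus shared a low level of chromosome 8 that D5 and D4 did not have, a description of 4 libraries with no test.

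Outside the 3 shifted chromosomes, some windows had medians far from that of all genes. Each one given here is the most extreme window of its chromosome, picked for that value. On chromosome 18 the window of 25 genes from Pcdhb20 to Pcdhgc3, a cluster of protocadherins, had a median log2 fold change of -1.99. It had 3 genes higher and 6 lower in D1, not far from the 20% and 21.7% over all genes. Protocadherin genes are close copies that share exons, so counts of single members are uncertain. On chromosome 6 the window from Kbtbd2 to Rpia had a median of 1.81, with 10 genes higher and 2 lower. On chromosome 7 the window from Ppm1n to Cblc, which holds Relb, had 12 higher and 1 lower and a median of 1.28.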
